A study of Mus musculus with 38 samples.

Results

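The 9 genes described here are surface and lineage genes of B cells, Ms4a1, Cd79a, Cd79b, Cd22, Cr2, Fcer2a, Pax5, Blk and Bank1. They were chosen by name, as the rows whose Ensembl identifier belongs to one of these symbols, and make up 9 of the 55487 genes in the deposited tables. The study followed omental tumours of 2 syngeneic mouse models of high-grade serous ovarian cancer (HGSOC) through carboplatin and paclitaxel chemotherapy. The 60577 cells were injected intraperitoneally into female wild type FVB mice and the HGS2 cells into female C57BL/6J mice, both aged 8 to 9 weeks. Treated mice received 3 weekly intraperitoneal doses of carboplatin (20 mg/kg) with paclitaxel (10 mg/kg), and controls received vehicle. The tumours of TP1 were taken 1 day, those of TP2 7 days and those of TP3 21 days after dosing ended. These times were days 36, 42 and 56 after injection in 60577, and days 64, 70 and 84 in HGS2.

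The 60577 groups held 3 TP1 control, 3 TP1 treated, 3 TP2 control, 4 TP2 treated and 4 TP3 treated tumours. The HGS2 groups held 3 TP1 control, 3 TP1 treated, 4 TP2 control, 3 TP2 treated and 4 TP3 treated tumours. HGS2 TP3 treated tumour 1 was deposited but is missing from the study's own tables, so it entered no main comparison and its values are given apart. There was no TP3 control, so TP3 treated tumours were set against TP2 controls, and time and treatment cannot be told apart there. Each model is 1 injected cell line in 1 host strain, so line and strain also cannot be told apart. The alleles of the lines are not given in the sources used here. Cultured 60577 and HGS2 cells, 2 libraries each, served as a reference without host cells.

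B cells sense antigen through a membrane antibody that signals through a pair of partner chains, Cd79a and Cd79b. The signal is passed on by Src family kinases such as Blk, is raised by the complement receptor Cr2 and is held back by the sialic acid binding receptor Cd22. Pax5 is the transcription factor that commits progenitors to the B lineage and keeps them there. Ms4a1 encodes CD20, Fcer2a the low affinity IgE receptor CD23, and Bank1 a scaffold protein of B cell receptor signalling. Cr2 and Fcer2a are carried by mature B cells, though not by them alone, and most of these genes are switched off when a B cell becomes a plasma cell. The omentum is a fatty tissue that holds lymphoid aggregates called milky spots, which contain B cells.

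Sequence before the RefSeq start of 5 members is shown as a description only. RefSeq promoter windows on GRCm38.p6 were found for 6 members, and Ms4a1, Cd79b and Blk have no entry. The windows of Fcer2a are not shown. Each run below lies before the RefSeq start and outside annotated exons. It is written 5′ to 3′ on the strand of the gene, with motif matches in capitals. The Cd79a run ends at the annotated start of the gene, which lies before the RefSeq start. The Cd22 run lies inside the annotated gene, downstream of its annotated start. The Cr2 run is chr1:195176720-195176969 on the minus strand, Bank1 is chr3:136326067-136326316 on the minus strand, and Pax5 is chr4:44710695-44710944 on the minus strand. Cd79a is chr7:24897247-24897380 on the plus strand and Cd22 is chr7:30879029-30879176 on the minus strand.
Cr2: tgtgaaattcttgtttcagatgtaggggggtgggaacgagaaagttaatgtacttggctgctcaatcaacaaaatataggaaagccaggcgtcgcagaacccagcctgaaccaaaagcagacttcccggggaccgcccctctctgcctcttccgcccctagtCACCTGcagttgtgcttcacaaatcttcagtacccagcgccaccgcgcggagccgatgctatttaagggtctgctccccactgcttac
Bank1: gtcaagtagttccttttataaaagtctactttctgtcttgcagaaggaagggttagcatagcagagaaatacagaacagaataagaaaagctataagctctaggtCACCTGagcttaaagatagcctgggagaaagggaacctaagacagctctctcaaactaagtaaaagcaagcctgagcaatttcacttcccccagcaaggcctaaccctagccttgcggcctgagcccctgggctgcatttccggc
Pax5: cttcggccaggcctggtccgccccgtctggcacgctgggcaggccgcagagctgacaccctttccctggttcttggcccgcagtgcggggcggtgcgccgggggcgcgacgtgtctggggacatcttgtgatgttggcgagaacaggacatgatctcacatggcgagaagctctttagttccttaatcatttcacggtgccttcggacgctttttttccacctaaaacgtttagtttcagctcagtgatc
Cd79a: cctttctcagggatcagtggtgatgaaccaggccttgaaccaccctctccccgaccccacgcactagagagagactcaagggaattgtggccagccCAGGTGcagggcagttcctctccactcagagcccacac
Cd22: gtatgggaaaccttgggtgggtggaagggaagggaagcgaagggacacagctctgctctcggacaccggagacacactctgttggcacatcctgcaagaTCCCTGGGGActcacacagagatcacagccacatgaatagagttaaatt

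The capitals mark an E box (CAGGTG, or its reverse complement CACCTG) in Cr2, Bank1 and Cd79a, and an EBF1-type motif (TCCC, any 2 bases, GGGA) in Cd22. Over the 250 bases before each start and on both strands, the E box was present in 5 of the 8 windows of 6 members. These were 1 window each of Bank1, Cd22, Cd79a, Cr2 and Fcer2a, against 17.2% of 32851 windows of all genes. The EBF1-type motif was present in 1 of the 8 windows, that of Cd22, and in 0.779% of all windows. An Ets-type motif (AGGAAGTG) was found in 1 of the 8, that of Cd79a, outside the run shown, and in 3.14% of all windows. The octamer (ATTTGCAT) was in 0 of the 8 windows of the 6 members and in 1.6% of all windows. The motifs do not overlap each other in these windows, and a match is a description of letters only.

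Tumour libraries held 17839635 to 49299442 expected counts and the cell line libraries 31633121 to 42461995. Levels are given as CPM, the count of a gene relative to the TMM-scaled size of its library. Comparisons used edgeR's quasi-likelihood test, adjusted by Benjamini-Hochberg over 16241 genes, and a gene was called changed where the adjusted p was under 0.05 and the change exceeded 1 log2 unit in size. All 9 members passed the filter on low counts (1 CPM or more in 25% or more of the 33 tumours used). In 3 HGS2 tumours transcripts of 10 pancreatic acinar genes summed to over 50000 CPM, at 83260 CPM in TP1 control tumour 3, 161000 CPM in TP2 control tumour 2 and 84010 CPM in TP3 treated tumour 2. Epithelial genes (Krt8, Krt18, Krt19, Krt7, Epcam and others, 8 in all) were above 0 in every group, with summed levels of 2345 to 3428 CPM in 60577 controls and 44.2 to 1192 CPM in HGS2 controls.

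The cultured tumour cells held almost no transcripts of the 9 genes. Ms4a1 had 0 counts in all 4 cell line libraries. The highest value was 6 counts, for Cd79a in 60577 library 2, and every other member had 0 to 3 counts in every cell line library. Tumours and cell lines come from tables made apart, so these levels are set side by side without a test. In bulk tumours, fewer cells of a type and less RNA per cell cannot be told apart.

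Control 60577 tumours held low levels of all 9 genes. Ms4a1 was at 0.278, 2.72 and 2.15 CPM in the 3 TP1 controls and at 3.38, 0.249 and 1.77 CPM in the 3 TP2 controls. Blk was at 0.173, 0.867 and 1.04 CPM at TP1 and at 0.918, 0.124 and 0.535 CPM at TP2, so it passed the filter on the strength of other groups. TP1 control 1 and TP2 control 2 were the lowest controls of their time point for all 9 members. Between the control groups the log2 differences, TP2 minus TP1, ran from -0.85 to 0.22. edgeR called 0 of 9 members, against 0% of all genes, with 0 members at an unadjusted p below 0.05 and 0 called by limma-voom or DESeq2.

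**Figure D1:**
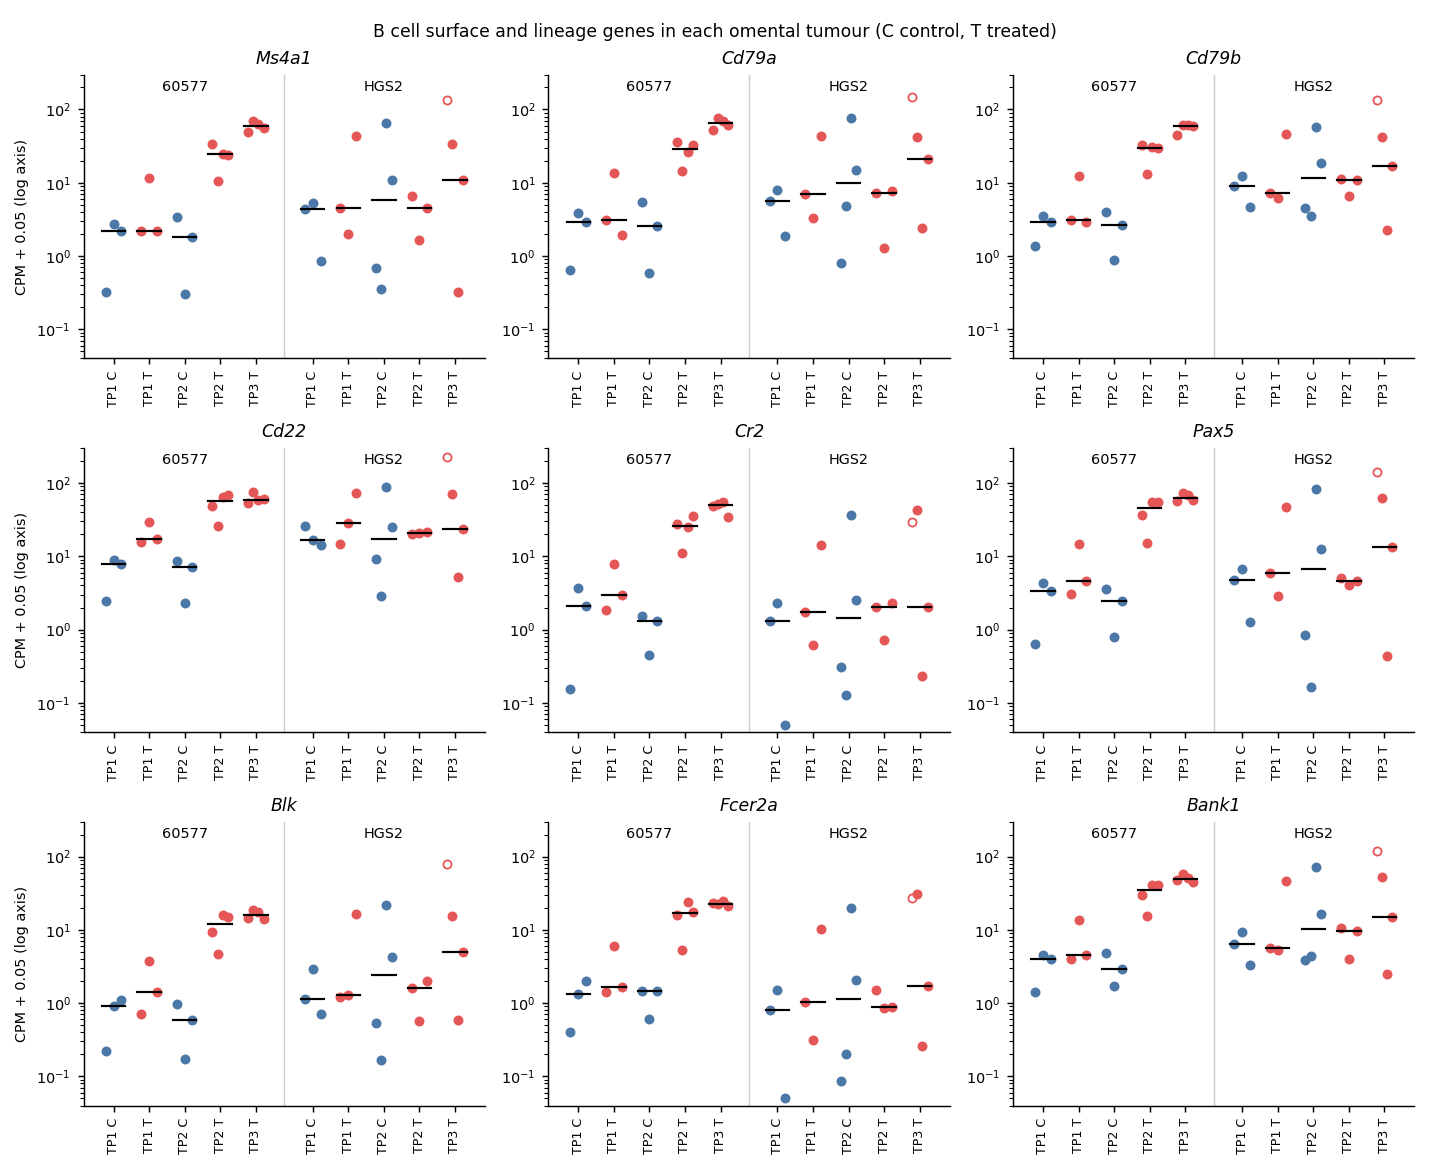
CPM (plus 0.05, log axis) of the 9 members, 1 point per tumour, in control (blue, C) and treated (red, T) groups of 60577 and HGS2; black bars are group medians and the open symbol is HGS2 TP3 treated tumour 1, left out of the medians. The 60577 TP2 and TP3 treated points lie above all TP2 control points for each gene, and the HGS2 groups overlap throughout.

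At 1 day after the last dose (TP1), edgeR called 1 member, Cd22, in 60577 tumours, a smaller share than that of all genes. Cd22 was at 2.39, 8.90 and 7.70 CPM in the controls and at 15.4, 29.6 and 17.4 CPM in the treated tumours. All treated tumours were above all controls. Its log2 fold change was 1.73 ± 0.49 (SE), with an adjusted p of 0.0147 by edgeR's quasi-likelihood test. This was 1 of 9 members called, against 15.6% of all genes, and 1 of 9 without overlap and higher, against 26% of all genes. The 8 others had log2 fold changes of 1.16 to 1.63. The Cd22 call was lost without TP1 control 1 (log2 fold change 1.33, edgeR adjusted p = 0.0597) and without TP1 treated tumour 2 (1.39, edgeR adjusted p = 0.0625), and in a fit of both models together (edgeR adjusted p = 0.166).

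The higher means of the remaining members at TP1 rested mainly on 1 treated tumour. Ms4a1 was at 2.16, 11.6 and 2.13 CPM in the treated tumours, and Pax5 at 3.04, 14.6 and 4.62 CPM against 0.590, 4.22 and 3.36 CPM in the controls. Treated tumour 2 was the highest of the 6 TP1 tumours for all 9 members. Treated tumours 1 and 3 lay within the range of the controls for Ms4a1, Cd79a, Cd79b, Cr2, Fcer2a and Bank1. Treated tumour 3 was also above every control for Pax5 and for Blk (1.36 CPM, highest control 1.04 CPM). Macrophage genes moved at the same time: 4 of 8 rose and 0 fell, and their summed level was 694.6 to 1010 CPM in controls and 2615 to 3959 CPM in treated tumours. Of T cell genes 7 of 12 rose, of adipocyte genes 6 of 6, and 6 of 7 tested epithelial genes fell. A set of 6 genes of all leukocytes summed to 221.2 to 365 CPM in controls and to 643.9 to 654.6 CPM in treated tumours. The members came to 3.25% to 9.13% of that sum in controls and to 5.35% to 17.2% in treated tumours, and these ranges overlapped. The part of these other genes in the Cd22 result was not tested.

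At 7 days after the last dose (TP2), all 9 genes had risen in 60577 tumours. The increases ran from 8.62-fold for Cd22 to 23.5-fold for Cr2. The test called 9 of 9 members higher, against 14.8% of all genes, and the 4 treated tumours lay above the 3 controls for all 9 members, which was the case for 25.1% of all genes. limma-voom and DESeq2 also called all 9.

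Among the surface receptors, Ms4a1 was at 3.38, 0.249 and 1.77 CPM in TP2 controls and at 34.04, 10.6, 24.99 and 24.2 CPM in treated tumours. The lowest treated tumour was thus well above the highest control. The log2 fold change of Ms4a1 was 3.70 ± 0.80 (SE; edgeR adjusted p = 0.00128). Cr2, the complement receptor, was at 1.48, 0.404 and 1.28 CPM in controls and at 27.5, 11.2, 24.7 and 35.4 CPM in treated tumours. Treated tumour 2 was again the lowest. The rise of Cr2, 4.56 ± 0.77 (SE; edgeR adjusted p = 0.000215), was the largest of the 9 in log2 units. Fcer2a was at 1.41, 0.560 and 1.40 CPM in controls and at 16.1, 5.29, 24.3 and 17.6 CPM in treated tumours, a log2 fold change of 3.81 ± 0.65 (SE). Cd22, whose call at TP1 hung on single tumours, was at 8.59, 2.24 and 7.04 CPM in controls and at 48.5, 25.8, 63.9 and 67.8 CPM in treated tumours. Its rise, 3.11 ± 0.50 (SE), was the smallest of the 9.

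The signalling chains of the B cell receptor moved together. Cd79a was at 5.38, 0.529 and 2.55 CPM in TP2 controls and at 36.5, 14.2, 25.9 and 32.5 CPM in treated tumours. Cd79b was at 4.00, 0.840 and 2.64 CPM in controls and at 33.2, 13.3, 30.5 and 29.7 CPM in treated tumours. The groups did not overlap for either chain, with log2 fold changes of 3.27 ± 0.76 for Cd79a and 3.42 ± 0.59 for Cd79b (SE). Blk rose by 4.39 ± 0.71 in log2 units (SE), from controls all under 1 CPM to 9.29, 4.63, 15.6 and 14.8 CPM. Bank1 was at 4.72, 1.65 and 2.88 CPM in controls and at 30.3, 15.2, 40.4 and 41.0 CPM in treated tumours, a log2 fold change of 3.35 ± 0.53 (SE). The transcription factor Pax5 was at 3.47, 0.746 and 2.43 CPM in controls and at 36.4, 15.3, 55.5 and 54.7 CPM in treated tumours. Its log2 fold change was 4.19 ± 0.71 (SE). Over the 9 members the adjusted p by edgeR's quasi-likelihood test was 0.000118 to 0.00207. All 9 calls were also made when any single tumour was left out.

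**Figure D2:**
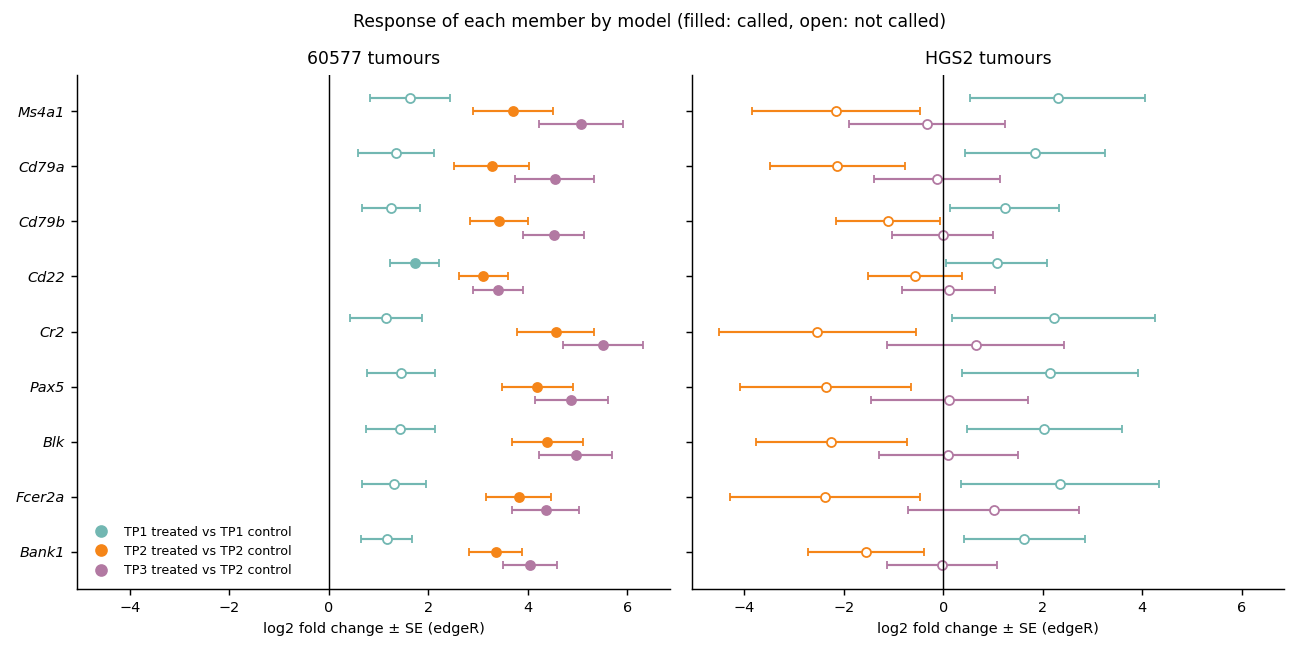
Log2 fold changes of the 9 members (points, bars ± SE, edgeR) for TP1 treated against TP1 control, TP2 treated against TP2 control and TP3 treated against TP2 control, in 60577 (left) and HGS2 (right); filled points were called and open points were not. In 60577 all TP2 and TP3 points are filled and run from 3.11 to 5.51, and in HGS2 no point is filled.

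Other genes of the B lineage rose in the same tumours. Of 23 tested genes on a list of other B lineage genes, 19 were called higher and 0 lower at TP2, among them the inhibitory receptors Siglecg (log2 fold change 3.89) and Btla (3.81), and Cxcr5, the receptor for the follicle chemokine Cxcl13 (3.71). Cd72 (-0.01, adjusted p = 0.985 by edgeR) and Ralgps2 (-0.29) were not called. Of 16 genes of B cell receptor signalling that B cells share with other leukocytes, 7 were called higher and 0 lower. Among them were Prkcb (1.80) and Pik3cd (1.70), and the kinase Lyn, at 0.67, was not called. Both lists were chosen with earlier results of these data known. The median log2 fold change was 3.70 over the members, 2.69 over the other B lineage genes and 0.03 over all genes tested.

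Plasma cell genes did not follow the members as a group. Of 8 tested, 3 were called higher and 2 lower at TP2. Irf4, which B cells also express, rose by 2.53 in log2 units, Eaf2 by 1.304 and Prdm1 by 1.29, whereas Sdc1 (-1.19), which epithelial cells express too, and Derl3 (-1.11) fell. Jchain, which joins secreted antibodies, had a log2 fold change of 0.93 ± 1.15 (SE), with an adjusted p of 0.499 by edgeR. Of 3 tested germinal centre genes Gcsam was called higher (2.89), and Bcl6 (0.26) and S1pr2 (0.02) were not called. Of 11 genes of follicular dendritic cells and lymphoid stroma 5 rose and 1 fell. The lymphotoxins Ltb (2.90) and Lta (2.67) rose, and Cxcl13 had a log2 fold change of 0.63 (edgeR adjusted p = 0.439). Ccl19, a chemokine of lymphoid stroma, was at 0.0328, 0 and 0 CPM in controls and at 6.21, 0.511, 1.53 and 1.73 CPM in treated tumours.

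Markers of other cells moved alongside. All 12 T cell genes were called higher at TP2, and their summed level was 14.7 to 59.9 CPM in controls and 179.7 to 277.6 CPM in treated tumours. All 6 adipocyte genes were called higher, from a sum of 2.64 to 20.2 CPM to one of 103.4 to 1120 CPM, and 5 of 7 tested epithelial genes were called lower, from 2433 to 3428 CPM to 681.4 to 1159 CPM. All 10 pancreatic acinar genes were called lower, with sums of 11.1 to 1980 CPM in controls and 7.87 to 32.7 CPM in treated tumours. Their part in the rise of the members was not tested. Relative to 6 genes of all leukocytes, the 9 members together came to 2.24%, 6.94% and 7.85% of the summed CPM in TP2 controls, in ascending order, and to 18.8% to 58.4% in treated tumours. Relative to the T cell genes, the members summed to 0.498 to 0.807 in controls and to 0.643 to 1.70 in treated tumours, and these ranges overlapped.

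**Figure D3:**
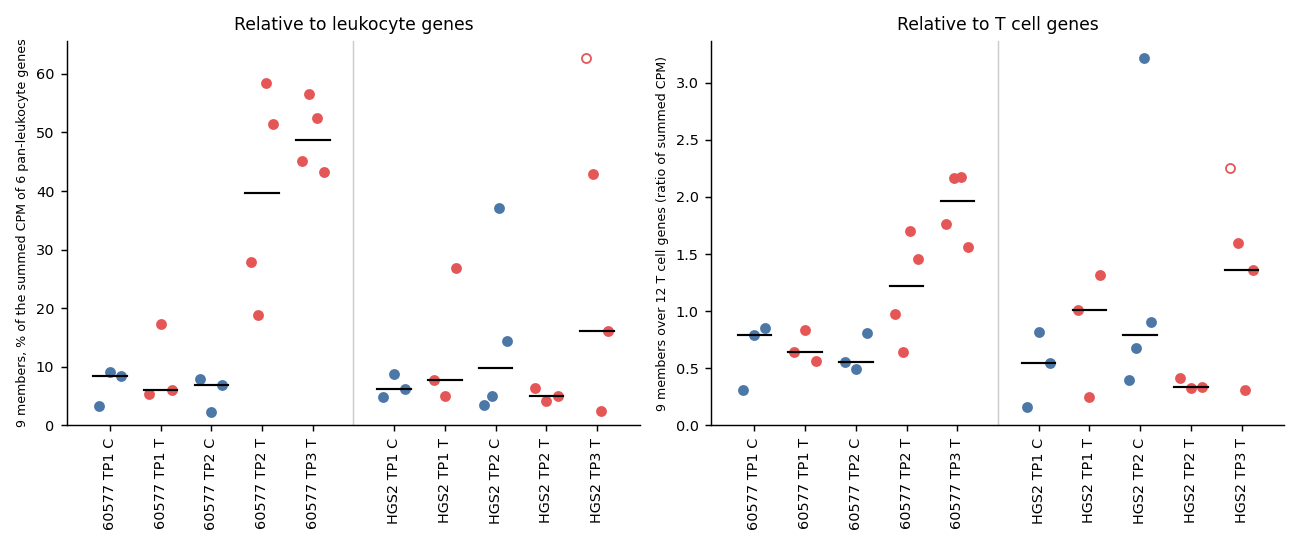
Summed CPM of the 9 members in each tumour (control blue, treated red, bars group medians), as a percentage of the summed CPM of 6 leukocyte genes (left) and as a ratio to the summed CPM of 12 T cell genes (right); the open symbol is HGS2 TP3 treated tumour 1. In 60577 the share of the leukocyte sum is 18.8% to 58.4% in TP2 treated tumours and at most 9.13% in controls.

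At TP3 all 9 members stood above the TP2 controls. Ms4a1 was at 49.1, 68.7, 63.0 and 56.6 CPM, Cr2 at 48.7, 51.6, 55.3 and 33.8 CPM, and Pax5 at 57.2, 72.9, 67.8 and 58.2 CPM. The tumours of this group lay close together, and for Ms4a1 the highest was 1.40 times the lowest. Against the same TP2 controls used above, 9 of 9 members were called higher, against 14.2% of all genes, and no treated tumour overlapped a control for any of them, which held for 28.2% of all genes. Log2 fold changes ran from 3.40 ± 0.51 for Cd22 to 5.51 ± 0.80 for Cr2 (SE), with adjusted p of 0.000025 to 0.000246 by edgeR. The change in Ms4a1 was 5.06 ± 0.84 (SE), or 33.3-fold, and that in Pax5 4.87 ± 0.73. T cell genes (12 of 12 higher), adipocyte genes (6 of 6 higher) and epithelial genes (7 of 7 lower) moved in this comparison too, and their part in it was not tested.

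Other genes of lymphoid tissue were measured in the same TP3 tumours. Of 8 tested plasma cell genes 5 were called higher and 1 lower against TP2 controls, and their summed level was 574.7 to 907.1 CPM against 340.1 to 420.5 CPM in TP2 controls and 246.3 to 442.6 CPM in TP2 treated tumours. Of the 11 genes of follicular dendritic cells and lymphoid stroma 6 were called higher and 1 lower against TP2 controls, and 1, Cxcl13, was called higher against TP2 treated tumours. Cxcl13, the chemokine that draws B cells into follicles, was at 112.5, 74.9, 73.9 and 97.4 CPM at TP3 against 31.8, 11.1, 4.67 and 17.2 CPM in TP2 treated tumours. The TP2 controls had Cxcl13 at 18.6, 4.42 and 8.32 CPM, so the TP2 groups overlapped, with treated tumour 1 above every control. The part of Cxcl13 in the members' levels was not tested.

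The steps between treated groups were smaller. From TP1 to TP2, 8 of 9 members were called higher, against 3.58% of all genes, with log2 differences of 1.296 to 2.55, and Cd22 missed the threshold (edgeR adjusted p = 0.0567). The groups did not overlap for 6 members, against 13.7% of all genes. This count rested on few tumours. It was 0 without TP1 treated tumour 1 or 3, 4 without TP2 treated tumour 4, 9 without TP1 treated tumour 2, and 0 when both models were fitted together. From TP2 to TP3, edgeR called 0 of 9 members, against 3.47% of all genes called higher, with 2 members, Ms4a1 and Cd79b, at an unadjusted p below 0.05, against 47.6% of all genes. limma-voom called 4 members and DESeq2 1. The log2 differences ran from 0.29 for Cd22 to 1.36 for Ms4a1, and 5 members (Ms4a1, Cd79a, Cd79b, Pax5 and Bank1) did not overlap, against 14.6% of all genes.

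The members did not keep one ratio to each other. Per 100 CPM of Ms4a1, Cd22 came to 254 to 900 in 60577 TP2 controls, 142 to 281 in TP2 treated tumours and 91.6 to 110 in TP3 treated tumours. The TP3 values lay below those of every control, and the TP2 treated range overlapped the controls. Cr2 per 100 CPM of Ms4a1 had a median of 87.8 over the 17 tumours of 60577 and of 34.8 over the 16 of HGS2, and Fcer2a one of 51.1 and of 21.8. The lowest tumours rest on few counts, 8 for Ms4a1 in each of the lowest 60577 controls.

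**Figure D4:**
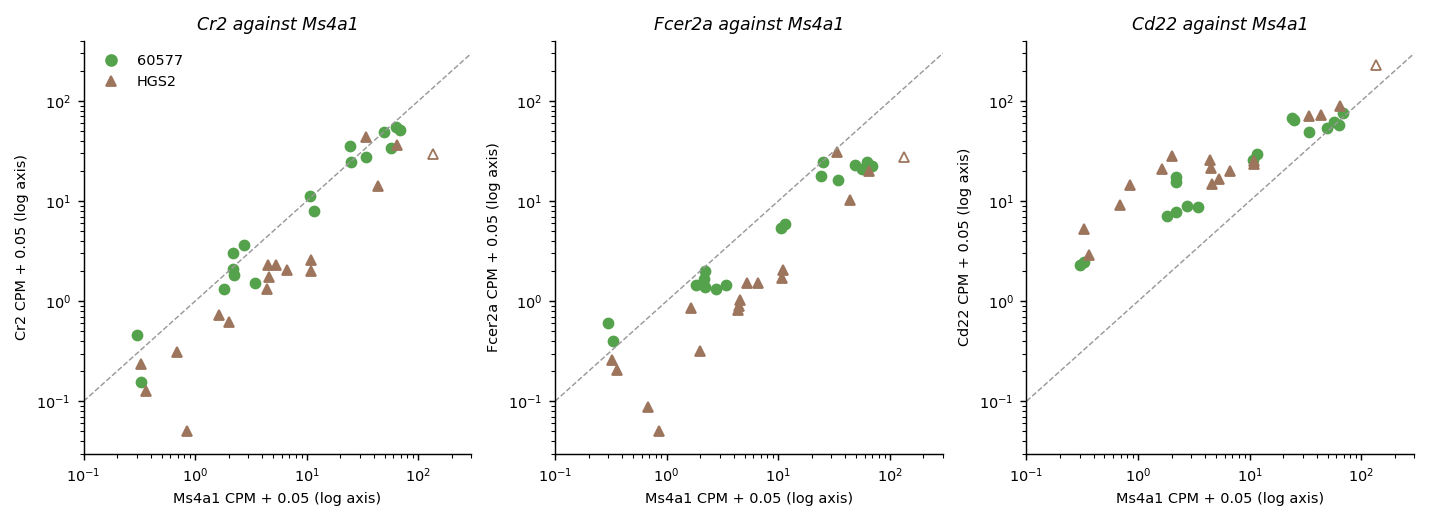
CPM of Cr2, Fcer2a and Cd22 against CPM of Ms4a1, 1 point per tumour (60577 circles, HGS2 triangles, the open one being TP3 treated tumour 1), on log axes with 0.05 CPM added; the dashed line marks equal levels. HGS2 points mostly lie below 60577 points for Cr2 and Fcer2a at like Ms4a1, and Cd22 comes nearer to the line where Ms4a1 is high.

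Per kilobase of annotated exon, the 9 genes fell into tiers in 60577 TP3 tumours. The mean level was 44.5 ± 6.84 CPM per kb for Cd79a and 39.4 ± 5.36 for Cd79b (SD, n = 4), which did not differ beyond their spread. Cd22 followed at 12.3 ± 1.91 and Ms4a1 at 9.59 ± 1.36 CPM per kb, which overlapped within their spread. The other members, in descending order Fcer2a, Pax5, Bank1, Blk and Cr2, ranged from 7.34 ± 0.483 down to 5.84 ± 1.16 CPM per kb, and neighbours in that order lay within their spread. In the TP2 controls Cd79a was at 1.94 ± 1.67, Cd79b at 1.74 ± 1.11 and Cd22 at 1.18 ± 0.657 CPM per kb (SD, n = 3), which did not differ beyond their spread, and Cr2 had the lowest mean at 0.130 ± 0.0702.

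In the HGS2 model the groups overlapped for all 9 genes. At TP2 Ms4a1 was at 0.633, 0.310, 64.9 and 10.9 CPM in the controls and at 6.58, 1.59 and 4.43 CPM in treated tumours. Pax5 was at 0.782, 0.116, 81.8 and 12.6 CPM in the controls and at 5.06, 3.98 and 4.52 CPM in treated tumours. TP2 control 3 stood above every other tumour of its group for all 9 genes, and the treated values fell inside the range of the controls. The members' log2 fold changes at TP2 ran from -2.53 to -0.57, with standard errors of 0.95 to 1.98. Adjusted p was 0.703 or more by edgeR.

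At TP1 the picture was set by a treated tumour. Ms4a1 was at 4.35, 5.24 and 0.801 CPM in HGS2 controls and at 4.51, 1.95 and 43.9 CPM in treated tumours, and Cr2 at 1.28, 2.25 and 0 CPM against 1.68, 0.570 and 14.2 CPM. Treated tumour 3 was the highest of the 6 for all 9 members. Log2 fold changes were 1.07 to 2.35 with standard errors of 1.01 to 2.04. At TP3 Ms4a1 was at 33.8, 0.277 and 10.9 CPM in the 3 tumours compared, and Cr2 at 43.4, 0.184 and 1.97 CPM. Against the TP2 controls, which also served at TP2, log2 differences were -0.33 to 1.01.

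In each of the 6 comparisons within HGS2, edgeR called 0 of 9 members, against 0% of all genes, with 0 members at an unadjusted p below 0.05 and 0 called by limma-voom or DESeq2. Over all genes, 152 to 1691 of 16241 had an unadjusted p below 0.05 in these comparisons, limma-voom called 0 and DESeq2 1 to 105. Every pair of HGS2 groups overlapped for every member. The wide standard errors leave sizeable differences in either direction undetectable with these tumours.

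Single HGS2 tumours reached or passed the levels of 60577 TP3 tumours. HGS2 TP3 treated tumour 1, outside the comparisons, held the highest Ms4a1 of any tumour at 135 CPM, with Cd79a at 148, Pax5 at 143 and Blk at 78.1 CPM, and its 9 members summed to 1046 CPM. Its Cr2 was 29.8 and its Fcer2a 27.4 CPM. The T cell genes of that tumour summed to 464.2 CPM and its adipocyte genes to 1546 CPM. HGS2 TP3 treated tumour 2 had a different balance, with Cr2 at 43.4 CPM and Fcer2a at 30.8 CPM beside Ms4a1 at 33.8 CPM. That tumour also held Ccl21a (152.2 CPM) and Glycam1 (124.3 CPM), genes of lymphoid stroma and of the high endothelial vessels of lymph nodes, and its acinar genes summed to 84010 CPM. Their part in its member levels was not tested. TP3 treated tumour 1 had Ccl21a at 9.11, Glycam1 at 10.9 and Cxcl13 at 5.6 CPM. TP2 control 3, the highest HGS2 control, had Ccl21a at 1.49 and Glycam1 at 0.443 CPM and Cxcl13 at 85.6 CPM.

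Untreated HGS2 tumours held more of some members than untreated 60577 tumours. With TP1 and TP2 controls averaged within each model, the test called 5 of 9 members higher in HGS2, against 13.2% of all genes. These were Cd79b (log2 difference 2.41, edgeR adjusted p = 0.00411), Cd22 (1.98, adjusted p = 0.00726), Bank1 (1.96, adjusted p = 0.0199), Blk (2.39, adjusted p = 0.0304) and Cd79a (2.09, adjusted p = 0.0394). The 7 HGS2 controls overlapped the 6 of 60577 for every member. Cr2 (1.29) and Fcer2a (0.83) were not called, and without HGS2 TP2 control 3 their differences turned to -0.39 and -0.62. The count was 2 without that tumour, 2 without 60577 TP1 control 1 or TP2 control 2, 3 without 60577 TP2 control 3 or HGS2 TP1 control 2, and limma-voom called 0. Of the 23 other B lineage genes tested 14 were called higher and 1 lower, and of the 16 shared signalling genes 9 and 0. The 6 leukocyte genes summed to medians of 739.7 (TP1) and 657.5 CPM (TP2) in HGS2 controls and 331.1 and 328.2 CPM in 60577 controls. The members' median share of that sum was 6.22% and 9.75% in HGS2 and 8.45% and 6.94% in 60577, with overlapping ranges. The part of the leukocyte genes in the difference was not tested. Host strain, cell line and day of collection all differ between these groups and cannot be told apart.

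The response at TP2 differed between the models for 7 of 9 members, against 3.21% of all genes in the same direction. The interaction, the treated-minus-control log2 change of HGS2 minus that of 60577, was -7.12 for Cr2, -6.67 for Blk, -6.59 for Pax5, -5.43 for Cd79a, -4.94 for Bank1, -4.55 for Cd79b and -3.71 for Cd22, with adjusted p of 0.0244 to 0.0438 by edgeR. Ms4a1 (-5.89, edgeR adjusted p = 0.0568) and Fcer2a (-6.22, edgeR adjusted p = 0.0563) missed the threshold. This count hung on single tumours. It fell to 0 without 60577 TP2 control 2, HGS2 TP2 control 3 or HGS2 TP2 treated tumour 1, to 1 without HGS2 TP2 treated tumour 2 or 3, and to 3 without 60577 TP2 control 3 or TP2 treated tumour 3 or 4. With the replicate number as a block, the count was 0. That block gave tumours with the same number a common effect across both models and all time points. It therefore does not follow a pairing within a model at TP2, which no label states. DESeq2 called 9 and limma-voom 0. At TP1 edgeR called 0 of 9 members, against 1.45% of all genes in either direction, with 0 at an unadjusted p below 0.05 and 0 called by limma-voom or DESeq2.

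Across tumours the members varied as a block. Over the 36 pairs of members, Pearson's r of log2 CPM ran from 0.949 to 0.997 in the 17 tumours of 60577 (median 0.981) and from 0.711 to 0.982 in the 16 of HGS2 (median 0.926), with Cd79a and Cd22 the least alike pair in both. These points share the contrast between treated and control tumours, and are given as a description. Ranked by the lower of the correlations with the members' mean in the 2 models, the gene outside the set most like them was Ighd, the constant region of the IgD antibody of mature B cells (r = 0.991 in 60577 and 0.988 in HGS2). It was followed by Fcmr (0.983 and 0.980), the IgM receptor, and by H2-Oa (0.981 and 0.964), a regulator of antigen loading in B cells, and the 10 most alike also held Gm45548, H2-Ob, Gm30211, Tnfrsf13c, H2-DMb2 and Cxcr5. In 60577 alone Cxcr5 was closer than Ighd (0.9945). In 60577 tumours, which the ranking used, Ighd was at 0.933 to 4.59 CPM in TP2 controls, 10.5 to 48.0 CPM in TP2 treated tumours and 50.7 to 57.0 CPM in TP3 treated tumours.

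The members' loci overlap few other genes on GRCm38. Ms4a1 (chr19:11249675-11266241) overlaps the antisense gene 4930526L06Rik, which reached at most 8 counts in a tumour, and Cd22 (chr7:30865402-30880342) overlaps Gm29439, with at most 2 counts. Genes over Pax5 (chr4:44524757-44710487) had at most 6 counts and the one over Bank1 (chr3:136053363-136326066) at most 1. Cd79a (chr7:24897381-24902197), Cd79b (chr11:106311341-106314762), Cr2 (chr1:195136811-195176716), Blk (chr14:63372836-63417037) and Fcer2a (chr8:3681737-3694175) overlap no other annotated gene.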

How the data were processed

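Total RNA of omental tumours, 34 in all, and of 4 cell line cultures was depleted of ribosomal RNA and sequenced as strand-specific pairs. The authors trimmed reads with Trim Galore 0.6.5, aligned them with STAR 2.7.0f to GRCm38 (mm10) and estimated expected counts per Ensembl gene with RSEM; the deposited expected counts are neither normalised nor filtered. The RSEM estimates were rounded to whole numbers, filtered (1 CPM or more in 25% or more of 33 tumours), given TMM factors and tested in edgeR 4.0.16 (R 4.3.3), in 1 fit per model or, for comparisons between models, 1 fit of both. Standard errors came from the F statistic. limma 3.58.1 (voom) and DESeq2 1.42.0 were alternatives, as were other filters and scaling, left-out tumours and a replicate block. Scripts were tested on simulated data.

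Groups were taken from the sample labels. Tumours came from individual mice, and no pair of libraries agreed within sampling noise. Tumours with the same number deviated together in the TP2 comparisons, with correlations of 0.144, 0.114 and 0.134 in 60577 and of 0.138, 0.295 and 0.296 in HGS2. In the other comparisons the correlations between same-numbered tumours ran from -0.488 to 0.367. No label states a pairing, and whether the numbers mark one was not tested. The 9 members and all gene lists were chosen with earlier results of these data known. Genes named are the 9 members, genes of the lists, and the 10 genes with the highest lower value of their correlations with the members' mean within the 2 models, of which 1 is not reported here. Promoter windows are from RefSeq (GRCm38.p6). Depth limits members under 1 CPM.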

Additional observations from a re-analysis of the deposited data

Results flagged for a closer look

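Each of the 9 members was examined in the 3 groups of 4 tumours, and a single tumour stood far from the rest for 5 members. Chance alone marks about 1 group in 20, but members vary together, so the 4 cases in 1 tumour are not separate events. HGS2 TP2 control 3 was far above the other 3 controls for Ms4a1 (64.86 CPM), Cr2 (36.42 CPM), Pax5 (81.82 CPM) and Fcer2a (19.78 CPM). 60577 TP3 treated tumour 1 was below the other 3 of its group for Cd79b (44.96 CPM).

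The response at TP2 differed between the models by a test of the difference itself for Cd79a (-5.43 on the log2 scale, HGS2 minus 60577), Cd79b (-4.55), Cd22 (-3.71), Cr2 (-7.12), Pax5 (-6.59), Blk (-6.67) and Bank1 (-4.94). These were 7 of 9 members, against 3.21% of all genes. The count was 0 with the replicate number as a block, 0 by limma-voom and 0 to 9 with single tumours left out, among them 0 without 60577 TP2 control 2, HGS2 TP2 control 3 or HGS2 TP2 treated tumour 1.

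HGS2 TP3 treated tumour 1, which entered no comparison, held 1046 CPM of the 9 members together, above the highest HGS2 control at 517.4 CPM.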

How the results depend on the processing

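All 9 members were called in 60577 at TP2 and at TP3 against TP2 controls under every alternative run, and the range with single tumours left out was 9 to 9 in both. At TP1 in 60577 the count was 0 in a fit of both models and 0 to 1 with single tumours left out. From TP1 to TP2 among treated 60577 tumours the count was 2 with a replicate block, 0 in a fit of both models and 0 to 9 with tumours left out. From TP2 to TP3 limma-voom called 4 and DESeq2 1. For HGS2 against 60577 controls, limma-voom called 0, a replicate block left 3, and the range with tumours left out was 2 to 7. There limma-voom turned Cr2 to -0.20 and Fcer2a to -0.90, and with single tumours left out Cr2 ran from -0.39 to 1.70 and Fcer2a from -0.62 to 1.11, both lowest without HGS2 TP2 control 3. For the difference in response at TP2, no filter on low counts gave 3, limma-voom 0, a replicate block 0, all deposited HGS2 tumours 4, and tumours left out 0 to 9. In the 6 comparisons within HGS2, between the 60577 control groups and for the difference at TP1, the count stayed at 0 under every alternative run. The replicate block gave each number a common effect over all groups of a fit. It changed no call in the TP2 comparisons within each model (9 in 60577 and 0 in HGS2). Every tumour correlated best with its own number in those comparisons (6 of 6 in each model), against 5 of 6 for 60577 TP3 treated tumours and TP2 controls, 4 of 6 for 60577 at TP1 and lower shares in the others. Leaving out the 3 HGS2 tumours rich in pancreas transcripts, an alternative chosen after seeing the data, gave 7 members between controls and 9 for the difference at TP2, with the other counts at 0. Of 1017 member values recomputed in the comparisons named member by member, 849 kept direction and call, 26 gained a call, 138 lost one and 4 turned direction. In the 6 comparisons within HGS2, between 60577 control groups and for the difference at TP1, where no member was called, 121 of 1134 values turned direction. The other gene lists were recomputed with limma-voom, with 193 counts within 1.5 times and 17 beyond. The causes of these shifts were not tested. Group sizes of 3 or 4 tumours and, in HGS2, the spread between tumours limit what could be detected.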
